A study of Homo sapiens with 4 samples.

Results

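The genes described here are 10 named members of the NF-kB system and its inflammatory output, among 17687 genes with 1 symbol on the arrays: the subunit genes RELA, RELB, NFKB1 and NFKB2, the inhibitor genes NFKBIA and TNFAIP3, and the secreted factors CCL2, CXCL8, CXCL1 and IL6. They were taken by name from the platform's gene annotation, and each had 1 probe set. The cells were SK-N-AS, a long-established line from a human neuroblastoma, and their RNA was read on whole-transcript Affymetrix arrays. One group of cells was exposed to BG-P400-TAT at 30 µM for 48 h, and the other, called untreated here, received phosphate-buffered saline for the same time. Each group has 2 arrays, which the design text calls biological replicates of this 1 line. Nothing used here says how separate the cultures were, and the p-values cover only the spread among these arrays, which may be technical. The series title describes the compound as aimed at the norepinephrine transporter and the integrin αvβ3, and the design text asks what it does to gene expression in these cells.

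NF-kB is a family of dimeric transcription factors held in the cytoplasm by inhibitor proteins. Signals from tumour necrosis factor, interleukin-1 and Toll-like receptors activate a kinase complex that marks the inhibitor for destruction, after which the dimer enters the nucleus and switches on cytokines, chemokines and its own inhibitors. In tumours, the chemokines it controls draw in monocytes and neutrophils.

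Values are log2 expression from RMA, in which 1 unit is a 2-fold difference. Median log2 expression was 6.49 to 6.51 on the 4 arrays. A gene was called above the negative controls on an array where it exceeded the 95th percentile of that array's 612 negative-control sets, a limit of log2 7.31 and 7.64 for the untreated replicates 1 and 2, and of 7.19 and 7.25 for the treated ones. Untreated replicate 2 stood apart: its median absolute log2 difference to the other arrays was 0.237 to 0.244, against 0.193 to 0.208 among the rest, and values without it, or the range with each array dropped in turn, are therefore given beside the differences. Markers of neuroblastoma cell states were also read. Of these, 6 of 8 measured adrenergic genes and 8 of 8 mesenchymal ones were above the negative controls on all 4 arrays. The share of all named genes was 43.3%. The catecholamine enzyme genes TH and DBH were above them on none, as were 51.1% of all named genes. Probe sets differ in how well they bind their target, so no gene's level is ranked against another's.

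The sequence that NF-kB dimers bind was looked for in the 250 bases before each RefSeq transcription start (GRCh38.p14). It is a feature that the arrays do not measure. Of the 10 genes, 8 had a promoter in the table, with 12 start sites in all, and CCL2 and RELB had none. The degenerate NF-kB consensus, searched on both strands, was present in 6 of the 8 genes and 7 of the 12 windows, against 9.96% of 35116 windows in the whole table. The shorter string GGAATTTCC, on either strand, was found in 4 of the 8 genes and 4 of the 12 windows, against 0.413% of all windows. In CXCL1, NFKB1 and NFKBIA it lies inside a consensus match, and in CXCL8 it stands alone. The stretches below carry the matches in capitals, with the base nearest the start site on the right.

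CXCL8: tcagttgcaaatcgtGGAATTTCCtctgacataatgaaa
CXCL1: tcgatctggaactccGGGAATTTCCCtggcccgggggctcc
IL6: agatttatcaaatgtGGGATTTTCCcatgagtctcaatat
NFKBIA: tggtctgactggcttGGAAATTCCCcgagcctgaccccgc
NFKB1: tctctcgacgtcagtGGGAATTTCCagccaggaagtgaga
TNFAIP3: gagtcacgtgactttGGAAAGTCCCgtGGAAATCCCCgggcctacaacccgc

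These lie at chr4:73740463-73740501 (CXCL8, plus strand), chr4:73869299-73869339 (CXCL1, plus strand), chr7:22727112-22727151 (IL6, plus strand), chr14:35404806-35404845 (NFKBIA, minus strand), chr4:102501295-102501334 (NFKB1, plus strand) and chr6:137867177-137867228 (TNFAIP3, plus strand). All 6 lie before the annotated transcription start. The first capital stands 91 bases before the start in CXCL8, 79 in CXCL1, 73 in IL6, 81 in NFKBIA, 49 in NFKB1 and 67 in TNFAIP3. NFKB2 had consensus matches in 2 of its 3 windows and RELA in neither of its 2. The AP-1 string TGACTCA, on either strand, was found in the CXCL8 window alone among the 12, from 137 to 131 bases before the start, against 4.2% of all windows. It overlaps no match of the other strings. Most of these genes are textbook NF-kB targets, so the shares describe the choice of genes, and a match is a string of letters, not a measured binding site.

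Against that background the genes fell into detected and undetected ones, with both kinds among the subunits, the inhibitors and the secreted factors. RELA, NFKB1, NFKB2, NFKBIA, CCL2 and CXCL8 were above the negative controls on all 4 arrays, and RELB, TNFAIP3, CXCL1 and IL6 on none. The detected share was therefore 6 of 10, where 43.3% of all named genes were above on all 4 arrays and 51.1% on none. The count was 6 on each array. It rests on the limit chosen: at the 99th percentile of the negative controls 2 of the 10 genes, CCL2 and RELA, were above it on all 4 arrays, and CXCL8, NFKB1 and NFKB2 on none. Detected genes included RELA, with no match in its windows, and CXCL8, NFKBIA, NFKB1 and NFKB2, each with a match in at least 1 window. Undetected ones included CXCL1, IL6 and TNFAIP3, which carry the matches printed above.

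**Figure D1:**
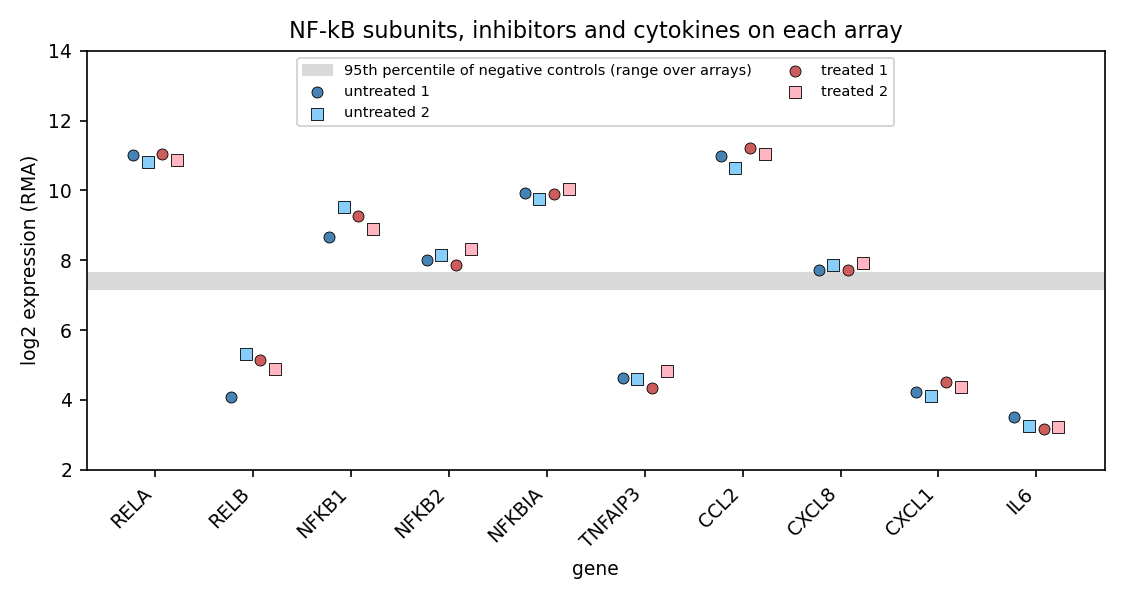
Log2 expression (y axis) of the 10 genes (x axis) on each of the 4 arrays, blue for untreated and red for treated, with circles for replicate 1 and squares for replicate 2. The grey band spans the 95th percentile of the negative controls over the arrays, 7.19 to 7.64. Of the genes, 6 lie above the band and 4 below it on every array, and treated and untreated points intermingle for most genes.

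After BG-P400-TAT no gene of the set passed limma at an adjusted p under 0.05, and 0% of the 21448 probe sets tested did. The smallest adjusted p among the 10 was 0.948, for CCL2. None reached an unadjusted p under 0.05, which 5.08% of all probe sets did. With 2 arrays against 2 there are 6 arrangements, and an exact two-sided permutation test of one gene cannot give a p below 0.333. The median log2 difference, treated minus untreated, was 0.030 over the 10 genes, against -0.00068 over all named genes. Of the 10 differences 7 were positive, where 49.8% were positive over all named genes. The median of the 10 was 0.093 without untreated replicate 2 and turned to -0.036 without untreated replicate 1, when 4 were positive. Intervals below are 95% confidence intervals of the limma fit.

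Among the subunits, RELA encodes the main activating partner of the classical dimer. Its log2 expression was 11.02 and 10.83 without the compound and 11.04 and 10.88 with it. The groups overlapped almost fully, with replicate 1 the higher in both. The difference was 0.035 with an interval from -0.42 to 0.49, and it was -0.062 without untreated replicate 2.

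NFKB1 encodes the precursor whose processed form pairs with RELA. It stood at 8.66 and 9.54 without the compound and 9.28 and 8.91 with it. Both treated values lay between the 2 untreated ones. The gap of 0.88 between the untreated arrays was wider than that of 99.3% of the 7652 named genes above the negative controls on all 4 arrays. The difference of NFKB1 was -0.0046 (interval -0.75 to 0.74). Without untreated replicate 2 it was 0.43, and without untreated replicate 1 it was -0.44, so its value rests on which control array is kept.

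NFKB2 encodes the precursor of the alternative pathway. Its values were 8.00 and 8.16 without the compound and 7.86 and 8.31 with it, which enclosed the untreated ones. The gap between the treated arrays, 0.45, was wider than in 93.8% of detected genes. The difference was 0.0069 (interval -0.52 to 0.53), and 0.085 without untreated replicate 2.

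RELB, the partner of processed NFKB2, was below the negative controls on every array. It read 4.09 and 5.31 without the compound and 5.14 and 4.89 with it. The low value of untreated replicate 1 set it apart from the other 3, and the untreated gap of 1.22 exceeded that of 98.7% of the 9031 named genes above the negative controls on no array. The difference of 0.31 (interval -0.59 to 1.21) became -0.30 without untreated replicate 1 and 0.92 without untreated replicate 2. As for the other undetected genes, this is a difference of values below the background limit and is not read as a change in expression. RELB was the 1 gene of the 10 whose interval reached beyond 2-fold. The 6 detected genes all had intervals within 2-fold in both directions, as did 97.2% of all named genes detected on all 4 arrays.

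The inhibitors also fell on both sides of the limit. NFKBIA encodes IκBα, which retains the dimer in the cytoplasm and is itself induced by it. It was at 9.93 and 9.77 without the compound and 9.90 and 10.05 with it. Treated replicate 2 was the highest, and treated replicate 1 lay between the untreated values. The difference was 0.12 (interval -0.32 to 0.57), and 0.042 without untreated replicate 2. TNFAIP3 encodes A20, a ubiquitin-editing brake on the pathway. It was undetected at 4.64 and 4.60 without the compound and 4.33 and 4.83 with it, and the latter enclosed the former. The difference was -0.039 (interval -0.57 to 0.49), and -0.056 without untreated replicate 2.

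CCL2, a chemokine that attracts monocytes, was the 1 detected gene of the set whose groups did not overlap. Its log2 expression was 10.98 and 10.64 without the compound and 11.22 and 11.05 with it. Both treated arrays were above both untreated arrays. The difference was 0.33 (interval -0.16 to 0.82), and CCL2 did not pass (limma adjusted p = 0.948). This difference was slightly smaller than the gap of 0.34 between the untreated arrays, and it was 0.16 without untreated replicate 2 and 0.50 without untreated replicate 1. In RNA from whole cultures, even an established rise would not tell more cells that express CCL2 from more CCL2 RNA per cell. Separation of this kind was common: of the 10 genes 2 had both treated arrays higher, CCL2 and CXCL1, and 1 had both lower, IL6, where 16.8% and 16.4% of all named genes did. Among named genes detected on all 4 arrays, 20.6% had both treated arrays higher.

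CXCL8 encodes interleukin-8, which attracts neutrophils. It lay just above the limit, at 7.72 and 7.87 without the compound and 7.72 and 7.92 with it. It cleared the limit of its own array by 0.23 on untreated replicate 2 and by 0.68 on treated replicate 2. The group ranges overlapped, with a difference of 0.026 (interval -0.43 to 0.48) that was 0.10 without untreated replicate 2.

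CXCL1, another neutrophil attractant, was undetected at 4.23 and 4.11 without the compound and 4.53 and 4.37 with it. It was the 1 gene of the 10 whose difference, 0.28 (interval -0.16 to 0.72), was larger than the gap between replicates in both groups, which 21.2% of all named genes showed. The difference was 0.22 without untreated replicate 2. CXCL1, CXCL2 and CXCL3 are closely related in sequence, and whether their probes cross-react was not tested. IL6, the cytokine of the acute-phase response, was undetected at 3.50 and 3.26 without the compound and 3.18 and 3.22 with it. At least 25.3% but no more than 34.2% of the negative-control sets lay below it on any array. Its difference was -0.18 (interval -0.63 to 0.28), and -0.30 without untreated replicate 2.

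**Figure D2:**
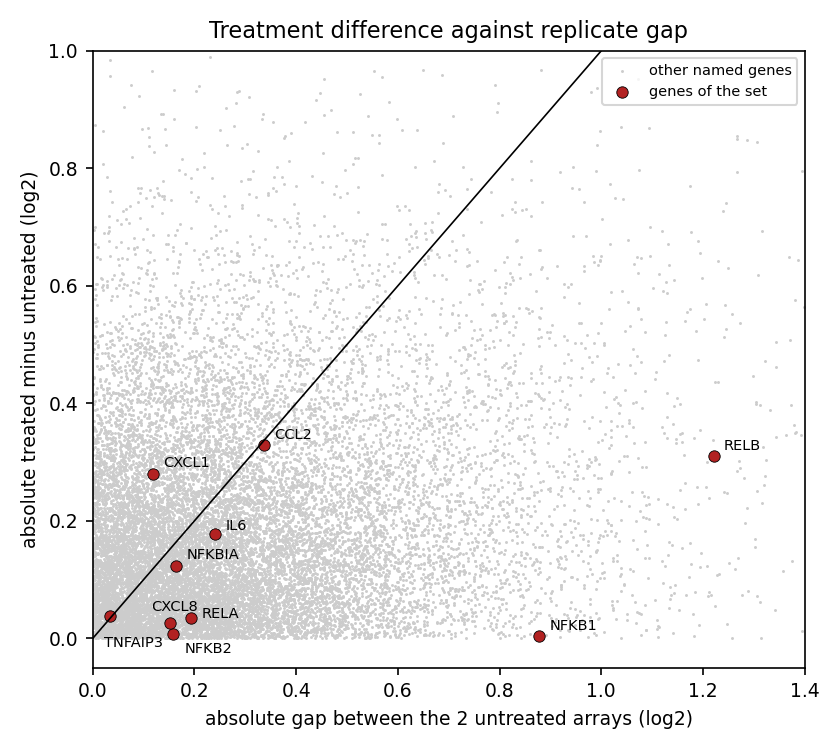
Absolute treated minus untreated difference (y axis, log2) against the absolute gap between the 2 untreated arrays (x axis, log2), red for the 10 genes and grey for all other named genes, of which 71 lie outside the axes. Points below the diagonal have a replicate gap larger than the difference. Among the 10 genes, NFKB1, with a gap of 0.88, and RELB, with 1.22, lie farthest to the right.

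The chemokine members were also set beside their chromosomal neighbours, which were chosen by position and named here after the values of the members were known. CXCL8 and CXCL1 belong to a cluster of 9 protein-coding genes on chromosome 4, running from CXCL8 to CXCL2. CXCL8 was the 1 gene of the 9 above the negative controls on all 4 arrays, and the other 8 were above them on no array. CXCL2, at the far end, read 5.52 and 6.14 without the compound and 5.26 and 5.53 with it. CCL2 opens a cluster of 6 protein-coding genes on chromosome 17, of which 5 were measured. CCL2 was detected on all 4 arrays and CCL7, CCL11, CCL8 and CCL1 on none. CCL7, its nearest neighbour, read 5.21 and 4.93 without the compound and 4.74 and 5.21 with it. Among the 14 measured genes of both clusters, only CXCL8 and CCL2 were detected on all 4 arrays, as were 43.3% of all named genes. Each cluster was taken here to begin at that member, so its first place follows from the choice of genes.

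**Figure D3:**
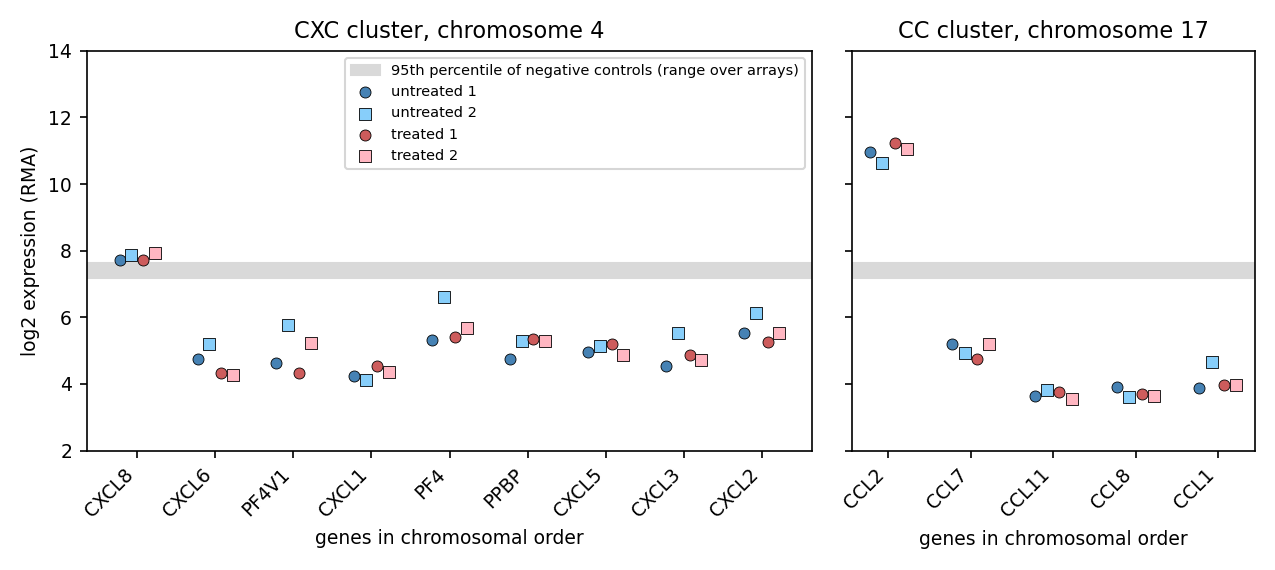
Log2 expression (y axis) of the measured genes of both chemokine clusters in chromosomal order (x axis), with 1 point per array and the grey band at the 95th percentile of the negative controls, 7.19 to 7.64. CXCL8 and CCL2 stand above the band on every array and all of the other measured genes below it. Untreated replicate 2 is the highest array for CXCL6, PF4V1, PF4, CXCL3, CXCL2, CCL11 and CCL1.

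The rest of the pathway was described from 7 lists with 102 genes, of which 88 were measured. None passed the test in either direction. Of the 88, 46 (52.3%) had a positive difference, against 49.8% of all named genes, and the median was 0.012. Both treated arrays were higher for 19 (21.6%) and both lower for 11 (12.5%), against 16.8% and 16.4% of all named genes. Detection on all 4 arrays was found for 32 of the 88 (36.4%), against 43.3% of all named genes. That 43.3% is also the share to set beside the detection count of each list below.

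Of 6 other subunit and inhibitor genes, 2 were detected on all 4 arrays. REL, the remaining subunit, stood at 8.41 and 7.83 without the compound and 8.53 and 8.00 with it, with replicate 1 higher in both groups. Its difference was 0.15 (interval -0.51 to 0.81), and -0.14 without untreated replicate 2. NFKBIZ, a nuclear member of the inhibitor family, was at 9.93 and 10.14 against 10.16 and 9.80, a difference of -0.055 (interval -0.56 to 0.45) that ran from -0.24 to 0.12 with each array dropped in turn.

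Among 16 upstream ligand and receptor genes, 5 were detected on all 4 arrays, and all 5 encode receptors: TNFRSF12A, TNFRSF1A, IL1R1, TLR3 and TLR4. The measured ligand genes LTA, LTB, IL1A, IL1B, TNFSF11 and TNFSF12 were detected on none, and so were the receptor genes CD40, TLR2 and TNFRSF11A and the coreceptor gene IL1RAP. The receptor gene LTBR was detected on 3 arrays. In TNFRSF12A, the receptor for the cytokine TWEAK, the untreated values were 11.87 and 12.67 and the treated values 12.74 and 12.99. Both treated arrays were higher, but treated replicate 1 exceeded untreated replicate 2 by far less than the untreated arrays differed. The difference was 0.60 (interval -0.085 to 1.28), 1.00 without untreated replicate 2 and 0.20 without untreated replicate 1. IL1R1, the interleukin-1 receptor, was at 8.38 and 8.57 without the compound and 8.94 and 8.75 with it, a difference of 0.37 (interval -0.091 to 0.83; 0.27 to 0.47 with each array dropped in turn). The list had 11 positive and 5 negative differences, with a median of 0.11, where 49.8% of all named genes were positive. Dropping untreated replicate 2 gave a median of 0.15, and dropping treated replicate 1 gave 0.0087, with 8 of the 16 positive.

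Adaptor, kinase and ubiquitin ligase genes were detected on all 4 arrays in 11 of 18 cases. TAB2, an adaptor of the kinase TAK1, had values of 9.44 and 9.37 without the compound and 9.74 and 9.85 with it. The replicates lay close together, and the difference was 0.39 (interval -0.043 to 0.82), or 0.34 to 0.44 with each array dropped in turn. RBCK1, a subunit of the linear ubiquitin ligase, was at 9.64 and 9.14 against 9.60 and 9.76, a difference of 0.29 (interval -0.25 to 0.84) that was 0.043 without untreated replicate 2. Of the kinase complex that marks the inhibitor, IKBKB was detected on 3 arrays, CHUK on 2 and IKBKG, its scaffold, on none. IKBKB read 7.51 and 7.10 without the compound and 7.30 and 7.69 with it. CHUK read 7.32 and 7.18 without the compound and 7.03 and 7.38 with it. The values of IKBKB and CHUK lie around the limits of 7.19 to 7.64, so their counts rest on small margins. The list had 10 positive differences among the 18, where 49.8% of all named genes were positive. Its median was 0.0094, which ran from -0.051 to 0.073 with each array dropped in turn.

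Among 7 other brakes on the pathway, 6 were detected on all 4 arrays. ITCH, a ubiquitin ligase that works with A20, was at 9.47 and 9.27 without the compound and 9.81 and 9.49 with it. Its difference was 0.28 (interval -0.21 to 0.77), 0.12 without treated replicate 1 and 0.18 without untreated replicate 2. OTULIN, which removes linear ubiquitin chains, was at 9.94 and 9.70 against 9.69 and 9.47. Its difference was -0.24 (interval -0.71 to 0.23), -0.12 without untreated replicate 1 and -0.36 without untreated replicate 2. Treated arrays were both higher for ITCH and both lower for OTULIN. The difference of ITCH was smaller than the gap of 0.32 between the treated arrays, and that of OTULIN was slightly larger than its gaps of 0.236 and 0.218. Differences were positive for 6 of the 7, against 49.8% of all named genes and 57.8% of those detected on all 4 arrays. The median of the 7 was 0.11. The median ran from 0.014, without untreated replicate 2, to 0.23, and 4 to 6 were positive, with each array dropped in turn.

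Other chemokines were largely undetected: 1 of 15 measured, CXCL12, was above the negative controls on all 4 arrays, against 43.3% of all named genes. The other 14 were above them on no array, against 51.1% of all named genes. CXCL12, which guides cells that carry the receptor CXCR4, stood at 9.97 and 10.04 without the compound and 9.67 and 9.81 with it. Both treated arrays were lower, with a difference of -0.27 (interval -0.71 to 0.17), and from -0.34 to -0.20 when any single array was dropped. Of the 15 differences 13 were negative, with a median of -0.22, where 40.8% of all named genes detected on no array were positive. The lean moved with untreated replicate 2, on which the list's mean was 4.99 against 4.54 to 4.60 on the other arrays. Without it, 7 of the 15 were positive and the median was -0.070. The count also moved with the scaling: after quantile normalization 6 of the 15 were positive, with a median of -0.15, and after cyclic loess 5, with a median of -0.14.

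Cytokine, adhesion and survival targets were detected on all 4 arrays in 3 of 14 cases, TNFAIP2, IER3 and CSF1. TNFAIP2, a gene induced by tumour necrosis factor, was at 8.88 and 9.05 without the compound and 9.26 and 9.27 with it, a difference of 0.30 (interval -0.14 to 0.74; 0.22 to 0.39 with each array dropped in turn). IER3, an early response gene, was at 15.08 and 15.11 against 15.32 and 15.12. Its difference was 0.13 (interval -0.32 to 0.57), 0.028 without treated replicate 1 and 0.14 without untreated replicate 2. Both treated arrays were higher in each, and for IER3 treated replicate 2 lay close to the untreated values.

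Receptors and signalling genes for the secreted members completed the pathway. The chemokine receptor genes CCR2, CXCR1 and CXCR2 and the interleukin-6 receptor gene IL6R were detected on no array, while IL6ST, which encodes the shared signalling subunit of the interleukin-6 family, was detected on all 4. STAT3, the transcription factor downstream of it, was at 11.32 and 11.38 without the compound and 11.63 and 11.39 with it. The difference of STAT3 was 0.16 (interval -0.30 to 0.61), 0.039 without treated replicate 1 and 0.19 without untreated replicate 2. JAK1, the kinase between them, was at 12.28 and 12.00 against 12.30 and 12.19, a difference of 0.10 (interval -0.37 to 0.57) that was -0.040 without untreated replicate 2. SOCS3, a feedback target of STAT3, was detected on no array.

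**Figure D4:**
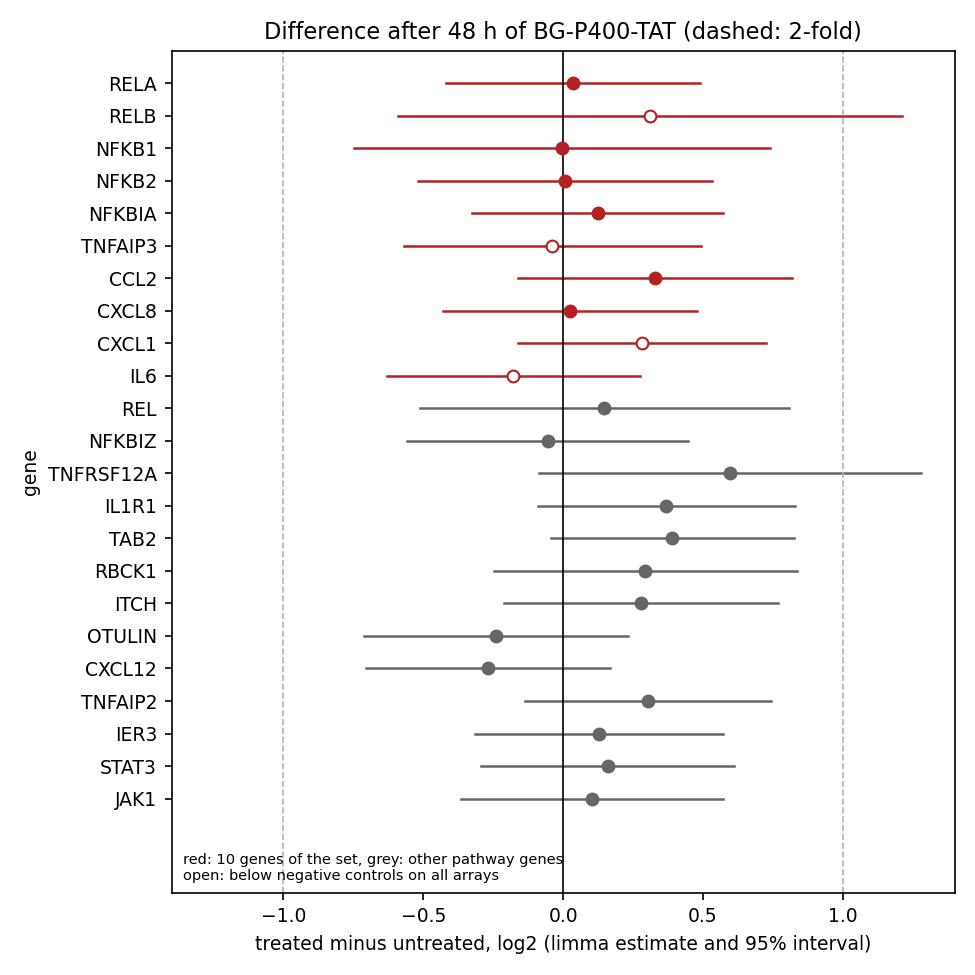
Treated minus untreated difference (x axis, log2) with its 95% limma interval for the 10 genes (red) and 13 other pathway genes above the negative controls on all 4 arrays (grey). Open circles mark genes below the negative controls on every array, and dashed lines mark 2-fold. Every interval contains 0, and those of RELB, up to 1.21, and TNFRSF12A, up to 1.28, pass the 2-fold line.

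Markers of cell state were set beside these values. All 8 mesenchymal markers had a positive difference, against 57.8% of named genes detected on all 4 arrays, with a median of 0.33 and a mean level of 10.41 and 10.14 without the compound and 10.60 and 10.50 with it. None passed. Without untreated replicate 2 the median was 0.10 and 7 were positive, and without treated replicate 1 it was 0.26 and 6 were positive. YAP1 was at 7.71 and 7.80 against 8.26 and 8.09, a difference of 0.42 (interval -0.021 to 0.86; 0.34 to 0.50 with each array dropped in turn). TWIST1 was at 10.42 and 10.11 against 10.67 and 10.66, a difference of 0.40 (interval -0.071 to 0.87) that was 0.24 without untreated replicate 2. The 8 adrenergic markers had a median of 0.14, with 6 positive, against 49.8% of all named genes and 57.8% of those detected on all 4 arrays. Without untreated replicate 2 their median was 0.039, with 4 positive. PHOX2A was at 0.58 (interval 0.11 to 1.05) and GATA2 at 0.42 (interval -0.083 to 0.93), and these were 0.42 and 0.22 without untreated replicate 2. PHOX2A had an unadjusted p of 0.0228 and a limma adjusted p of 0.948, so it did not pass either. Untreated replicate 2, on which CCL2 was lowest, was the lowest array for 11 of the 16 markers, against 29.1% of all named genes and 37.7% of those detected on all 4 arrays. It was the lowest for 4 of the 10 NF-kB genes. Of the other markers, YAP1 was lowest on untreated replicate 1 and TH, SLC6A2, CD44 and SNAI2 on treated replicate 2. The part of cell state in the CCL2 value was not tested.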

How the data were processed

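Per the submitters' processing notes, the tools were RMA and Transcriptome Analysis Console (version 4.0.1.36), and the authors deposited one log2 expression value per probe set and array. Their range shows the log2 scale. Because RMA makes the arrays' distributions alike, it would hide a shift common to most genes. The sources used here name no genome build for the array. Of 24351 probe sets, 2903 controls were left out, and all other 21448 were tested, dim ones included, of which 17709 had 1 symbol and 3739 are unnamed here. The brightest probe set stood for a gene.

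The groups were compared by limma (version 3.58.1, R 4.3.3; lmFit, then eBayes). Group was the sole term, tests were two-sided, and p-values were adjusted by Benjamini-Hochberg over all tested probe sets, at 0.05. Residual degrees of freedom were 2 and prior ones 4.90, and the script was tested on simulated data. The number of arrays limits the precision. The members and lists were chosen with earlier results of these data known. Besides the 10 members, each list gave the 2 genes of smallest p among its genes above the negative controls on all 4 arrays, and genes named outside this rule are said to be so or are given as levels and detection only. Of 136 other list genes 119 were measured, and the rest are not analysed here. Promoter sequences and gene order are RefSeq's (GRCh38.p14), and gene order was used only to say which genes are neighbours. Alternatives were quantile normalization, cyclic loess, median centring, trended and robust moderation, array weights, the replicate number as a block, a filter on dim probe sets, each array left out, other background limits and the mean of a gene's probe sets.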

Additional observations from a re-analysis of the deposited data

How the results depend on the processing

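No probe set passed an adjusted p under 0.05 in any of the 12 fits, and the smallest adjusted p over them ranged from 0.331, without untreated replicate 1, to 1.00, without treated replicate 2. At an unadjusted p under 0.05 there were 690 to 2444 probe sets with an array left out, against 1089 with all 4. Quantile normalization and cyclic loess turned the sign of differences near 0: RELA was -0.0022 after quantile normalization and -0.0057 after cyclic loess, TNFAIP3 0.036 and 0.024, CXCL8 -0.025 and -0.0100, and NFKB2 -0.036 and -0.033. The median of the 10 genes ranged from -0.036 to 0.19 with an array left out. The sign of single differences turned in that way for RELB (-0.30 to 0.92), RELA (-0.062 to 0.13), TNFAIP3 (-0.29 to 0.21), CXCL8 (-0.074 to 0.13), NFKB2 (-0.22 to 0.23), NFKB1 (-0.44 to 0.43), REL (-0.14 to 0.44), NFKBIZ (-0.24 to 0.12) and JAK1 (-0.040 to 0.25). CCL2 (0.16 to 0.50), CXCL1 (0.20 to 0.36), NFKBIA (0.042 to 0.21) and IL6 (-0.30 to -0.057) kept their sign. For CCL2, CXCL1 and IL6 this could not be otherwise. Where the groups do not overlap, leaving out any single array cannot turn the sign, so it only restates that separation. At the 99th percentile of the negative controls, 2 of the 10 genes, CCL2 and RELA, were detected on both untreated arrays instead of 6, and at the 90th percentile 6. Trended and robust moderation, the replicate block and the filter on dim probe sets leave a difference as it is. Array weights hardly changed one, and with 1 probe set per member the mean of its probe sets is the same value. That no sign turned under these settings therefore says nothing about stability. Median centring moves every difference by the same small amount, and it turned no sign among the named genes. Over all probe sets, the deviations of arrays with the same replicate number had a correlation of -0.00085. Of the 21448 probe sets 11566 were above the negative controls on no array, and a shared deviation among detected genes alone was not tested. The main fit does not read the numbers as pairs. With the replicate number as a block, 0 probe sets passed, with a smallest adjusted p of 0.929 and 1079 at an unadjusted p under 0.05. Where a sign turned, the cause was not tested. A fit with 1 array in a group assumes that the lone array varies like the others.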

Other observations

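Among the 88 other pathway genes measured, 5 had an unadjusted p under 0.05, where 5.08% of all probe sets did, and none passed after adjustment (limma adjusted p = 0.948 for each of the 5). They were named after their values were seen. TRADD, the adaptor of the tumour necrosis factor receptor, stood at 6.24 and 6.81 without the compound and 7.22 and 7.75 with it, a log2 difference of 0.96 (95% interval 0.30 to 1.61) that ran from 0.67 to 1.24 when any single array was dropped. It was above the negative controls on both treated arrays and on neither untreated array. The limit was lower on the treated arrays (7.19 and 7.25) than on the untreated ones (7.31 and 7.64). Treated replicate 1 exceeded its own limit by little and would not pass that of either untreated array. The other 4 were below the negative controls on every array, so their differences are of background values: IL1B, which encodes interleukin-1 beta, at 0.49, CXCL11, an interferon-induced chemokine, at 0.60, CXCL6, a neutrophil chemokine, at -0.67, and CXCR2, the receptor for CXCL1 and CXCL8, at -0.54. With each array dropped in turn these ran from 0.39 to 0.58, 0.44 to 0.76, -0.89 to -0.46 and -0.67 to -0.41.

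Markers of leukocytes and endothelium, cells that respond to these chemokines in tissue, were mostly undetected. Of 9 measured leukocyte markers 7 were above the negative controls on no array, where 51.1% of all named genes were. These 7 include CD3E, CD14, CSF1R and ITGAM, and all 6 endothelial markers were likewise above them on no array. The exceptions were PTPRC, which encodes the pan-leukocyte surface phosphatase, at 12.75 and 12.80 without the compound and 12.71 and 12.57 with it, and CD68, a lysosomal protein of macrophages and other cells, at 10.58 and 10.73 against 10.73 and 10.78. The log2 differences were -0.14 for PTPRC (interval -0.57 to 0.30) and 0.10 for CD68 (interval -0.34 to 0.54), which ran from -0.21 to -0.069 and from 0.022 to 0.17 with each array dropped in turn. Why PTPRC reads high in a line in which 7 of the 9 leukocyte markers are undetected was not tested.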
